A study of Mus musculus with 9 samples.

Results

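The *Sall* and *Zic* genes examined here were *Sall1*, *Sall2*, *Sall3*, *Sall4*, *Zic1*, *Zic2* and *Zic5*. These 7 genes were taken by symbol from the feature list of the deposited single-cell count matrices, which hold 32285 genes. Levels are given in CPM, the UMIs (molecules told apart by their unique identifiers) of a gene per 1000000 UMIs of the summed cells.

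The series profiled mouse forelimb buds of 37 to 39 somites (E10.75) by droplet scRNA-seq in 9 libraries, 3 per genotype and each made from 1 pair of forelimb buds. Wild-type (Wt) buds were compared with buds homozygous for EC1CRM8Δ/Δ (E1C8) or EC1CRM5Δ/Δ (E1C5), alleles that each lack several conserved regulatory elements of *Grem1*, which encodes a secreted BMP antagonist. All mice were on a Swiss Albino background, and the deletions are germline alleles that are not restricted to the limb. The comparison asks which mesenchymal populations differ when *Grem1* is reduced in limb buds that later form a digit fewer.

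SALL proteins are zinc-finger transcription factors of the spalt family. They carry an N-terminal motif that recruits the NuRD complex, which removes histone acetyl marks and remodels nucleosomes. In mouse limb buds *Sall1* and *Sall3* act in overlapping fashion in the autopod, the hand plate, and *Sall4* acts early with *Tbx5* and *Gli3* in patterning of the limb skeleton. ZIC proteins share the zinc-finger fold of the GLI factors that relay Hedgehog signals, and they are best known for roles in the neural tube and neural crest.

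Promoters of 300 bases (250 before to 50 after the start, RefSeq, GRCm38.p6) were given for *Sall1*, *Sall2*, *Zic1* and *Zic5*. The following are shown because *Sall1* and *Zic5* followed each other across the limb bud while *Sall2* did not. Capitals mark the CCAAT box or its reverse complement ATTGG, which 37.4% of all 32851 promoters of this length hold on either strand. The intervals are chr8:89044113-89044412, chr14:122465609-122465908 and chr14:52328621-52328920, all minus strand, and *Sall1* and *Sall2* have further promoters downstream that are not shown.
Sall1: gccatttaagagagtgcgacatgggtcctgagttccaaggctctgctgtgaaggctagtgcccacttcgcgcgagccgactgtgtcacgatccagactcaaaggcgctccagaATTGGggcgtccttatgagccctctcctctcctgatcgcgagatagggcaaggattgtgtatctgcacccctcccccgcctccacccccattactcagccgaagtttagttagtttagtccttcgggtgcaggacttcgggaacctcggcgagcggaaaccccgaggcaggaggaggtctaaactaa
Zic5: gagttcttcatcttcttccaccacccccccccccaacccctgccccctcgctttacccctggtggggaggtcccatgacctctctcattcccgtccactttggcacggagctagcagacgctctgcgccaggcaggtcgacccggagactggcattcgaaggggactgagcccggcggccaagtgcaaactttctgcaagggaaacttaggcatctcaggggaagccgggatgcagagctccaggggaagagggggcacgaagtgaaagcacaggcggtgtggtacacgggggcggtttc
Sall2: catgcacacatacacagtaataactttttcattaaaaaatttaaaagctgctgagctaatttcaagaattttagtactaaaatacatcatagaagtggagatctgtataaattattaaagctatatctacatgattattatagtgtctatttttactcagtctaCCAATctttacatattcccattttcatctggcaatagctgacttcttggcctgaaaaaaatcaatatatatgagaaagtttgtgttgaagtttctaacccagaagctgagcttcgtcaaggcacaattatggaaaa
The *Sall1* promoter shown holds 18 CG dinucleotides and that of *Zic5* 15, against a median of 7 over all promoters. The *Sall2* promoter shown holds 1 and its other promoter 10, and those of *Sall1* not shown hold 27 and 39, so that the 2 *Sall2* promoters lie on both sides of the median. Neither the GLI letters GACCACCCA (in 0.253% of promoters) nor the HOX13 letters CCAATAAAA (in 0.371%) occurred on either strand in any of the promoters of these 4 genes. No interval was printed for *Sall3*, *Sall4* or *Zic2*.

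The genes lie on several chromosomes (GRCm38, GENCODE M21 gene models). *Sall1* spans chr8:89027235-89044162 on the minus strand, *Sall2* chr14:52311172-52328762 (minus), *Sall4* chr2:168748332-168767943 (minus) and *Sall3* chr18:80966376-80986771 (minus). *Zic5* (chr14:122456795-122465677, minus) and *Zic2* (chr14:122475435-122479852, plus) are divergent neighbours whose starts are 9758 bp apart. *Zic1* (chr9:91358058-91365810, minus) overlaps *Zic4* on the opposite strand, and *Sall4* overlaps the antisense transcript gene *Gm14261*. How reads were split within these overlaps was not tested.

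Totals ran from 26620760 to 500559729 UMIs per library, and 52432 cells passed thresholds on detected genes, UMIs and mitochondrial share, with no doublet caller run. Of these, 39765 were gated as mesenchyme, 454 to 7789 per library, with medians of 18217.5 to 51959.5 UMIs per cell. Each cell was thinned to 10000 UMIs before any marker was read, and 10 positions were then defined by limb marker genes. A cell could hold several positions or none: 11.4% of the mesenchymal cells were in 2 or more and 44.6% in no position. Some positions shared many cells. Of the *Grem1*-expressing cells 40.0% were also at the zeugopod level, as were 27.9% of polarizing region cells, and 44.6% of proximal cells were also core chondrogenic. Counts over positions are therefore not counts of separate cells. Between any 2 libraries, at most 0.497% of the filtered cells of the smaller one shared a barcode with the other. All 3 Wt libraries read as male from *Xist* and Y-linked genes, as did 2 of the 6 mutant libraries, so that sex and genotype were partly confounded. Wt replicate 1 and E1C8 replicate 3 read as male yet held 21.9 and 9.66 CPM of *Xist*, against at most 0.0922 in the other male libraries, and E1C8 replicate 1 read as female with 3.05 CPM of Y-linked transcripts. *Grem1*, the gene whose enhancers are deleted, stood at 41.6, 28.9 and 31.1 CPM in Wt mesenchyme, at 11.6, 11.3 and 13.7 in E1C8 and at 17.4, 15.8 and 25.0 in E1C5. It was lower in E1C8 (log2 fold change -1.49 ± 0.17 SE, adjusted p = 0.00148) and in E1C5 (-0.74 ± 0.16, adjusted p = 0.0472, edgeR quasi-likelihood test with Benjamini-Hochberg adjustment over the genes tested in a group, 16795 in mesenchyme, as for the other adjusted p-values unless another test is named). For both mutants the value was -1.12 ± 0.14 (adjusted p = 0.00355), a call lost with sex as a covariate (-1.12, adjusted p = 0.0802). In the 5 male libraries it stood at -1.13.

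In Wt mesenchyme 5 of the 7 genes were graded across the limb bud, *Sall2* was nearly even, and *Zic1* was close to absent. *Sall1*, *Sall3*, *Zic2*, *Zic5* and, less steeply, *Sall4* were high in the distal autopod (cells with *Hoxa13* and *Hoxd13*), the polarizing region (*Shh*), the *Grem1*-expressing cells, the zeugopod level (*Hoxa11* and *Hoxd11* without *Hoxa13*) and the peripheral mesenchyme (*Asb4* and *Msx1*). They were low in core chondrogenic cells (*Sox9* and *Col2a1*), in posterior *Osr1* cells without *Shh*, in *Sostdc1* *Hgf* cells and in the anterior proximal (*Pax1*, *Alx4*) and proximal (*Gsc*, *Creb5*) mesenchyme. Erythroid cells, which should lack these genes, held 4.27 to 8.60 CPM of *Sall1*, 3.64 to 10.9 of *Sall3*, 2.86 to 9.37 of *Zic2* and 4.42 to 9.38 of *Zic5* in the 3 Wt libraries. Values that overlap with these ranges were read as background, so that their order and the size of a fold over them were not read. The ranges pooled the 3 libraries. Wt replicate 1, with 980 erythroid cells, held 4.27 CPM of *Sall1*, 4.83 of *Sall3*, 2.86 of *Zic2* and 4.42 of *Zic5*. Wt replicate 3 had 22 such cells, and its *Zic2* value of 9.37 rested on 18 UMIs. Positions were not compared with erythroid cells of their own library, so that an overlap does not show that a gene was absent. Mesenchyme markers did not keep a cell out of the erythroid gate, and the part of such cells in these ranges was not tested.

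*Sall1*, the spalt gene needed for kidney and, with *Sall3*, for autopod development, had its highest Wt mean in the distal autopod. There it stood at 113.8, 79.9 and 76.7 CPM, a mean of 90.1 ± 20.6 (SD, n = 3). The polarizing region followed with 77.2 ± 27.9 (n = 2), then *Grem1*-expressing cells with 58.1 ± 8.67, the zeugopod level with 50.8 ± 15.6 and the peripheral cells with 38.6 ± 4.78. The ranges of all neighbours in this upper part of the order overlapped. A gap separated the peripheral cells, lowest at 35.4, from the posterior cells without *Shh*, highest at 15.2 and with a mean of 13.1 ± 1.99. Neighbours among the remaining positions overlapped. The anterior proximal (10.0 ± 2.2), core chondrogenic (9.47 ± 1.14), *Sostdc1* *Hgf* (8.26 ± 0.329, n = 2) and proximal cells (7.95 ± 1.97) overlapped with the erythroid background.

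*Sall3* also peaked distally. In the distal autopod it was at 135.1, 93.6 and 80.7 CPM (mean 103.1 ± 28.4), and in the proximal mesenchyme at 5.86 ± 2.39, overlapping with background. *Grem1*-expressing cells came second with 83.2 ± 15.3, ahead of the zeugopod level (63.8 ± 23.5), the polarizing region (57.6 ± 20.4) and the peripheral cells (53.4 ± 10.9), with overlapping ranges. Below these, the core chondrogenic cells (17.2 ± 3.47) were apart from their neighbours and above background. The posterior cells (12.2 ± 1.94), the *Sostdc1* *Hgf* cells (9.55 ± 0.0665, n = 2) and the anterior proximal cells (7.37 ± 1.42) overlapped with the erythroid range.

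*Sall4*, whose human counterpart is mutated in Duane-radial ray syndrome, had a flatter gradient, 3.76-fold from the highest to the lowest position. Its Wt values in the distal autopod were 59.3, 34.1 and 48.2 CPM (mean 47.2 ± 12.6), and in the anterior proximal mesenchyme the mean was 12.5 ± 4.13. The ranges of all 9 pairs of neighbouring positions overlapped. Wt replicate 1 was the highest Wt library for *Sall4* in all 10 positions in which it was measured.

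*Zic2* was high in the distal autopod (76.4, 56.4 and 75.6 CPM, mean 69.4 ± 11.3), the polarizing region (65.9 ± 15.4, n = 2) and the peripheral cells (61.6 ± 2.73), which overlapped. The zeugopod level (39.5 ± 4.87) and the *Grem1*-expressing cells (38.2 ± 7.54) overlapped with each other and lay apart from the positions above and below. *Zic2* overlapped with the erythroid background in core chondrogenic (8.87 ± 1.4), posterior (8.22 ± 0.253), anterior proximal (8.08 ± 1.69) and *Sostdc1* *Hgf* cells (5.65 ± 0.676, n = 2). *Zic5*, its divergent neighbour, reached 86.8 ± 32.6 (n = 2) in the polarizing region and 83.6 ± 26.3 in the distal autopod, with 113.3, 63.0 and 74.5 in the 3 libraries. It stayed above 37 CPM in every Wt library of the 5 high positions and below 17 in every Wt library of the others, with proximal cells at 10.6 ± 4.58, overlapping with background.

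*Sall2* ran from 26.9 ± 3.69 CPM in core chondrogenic cells to 20.2 ± 2.86 in peripheral cells, a 1.33-fold span in which all 9 neighbouring pairs overlapped. *Zic1* gave 24 UMIs among the 39765 mesenchymal cells of all 9 libraries, 0.0153 CPM. In the distal autopod, the polarizing region, the *Grem1*-expressing, the posterior and the *Sostdc1* *Hgf* cells it gave 0 UMIs, which allows up to 0.088 CPM in the 763 distal autopod cells (3 counts of all UMIs there, counting error only). It did not pass the low-count filter, so the model tests cover 6 of the 7 genes.

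**Figure D1:**
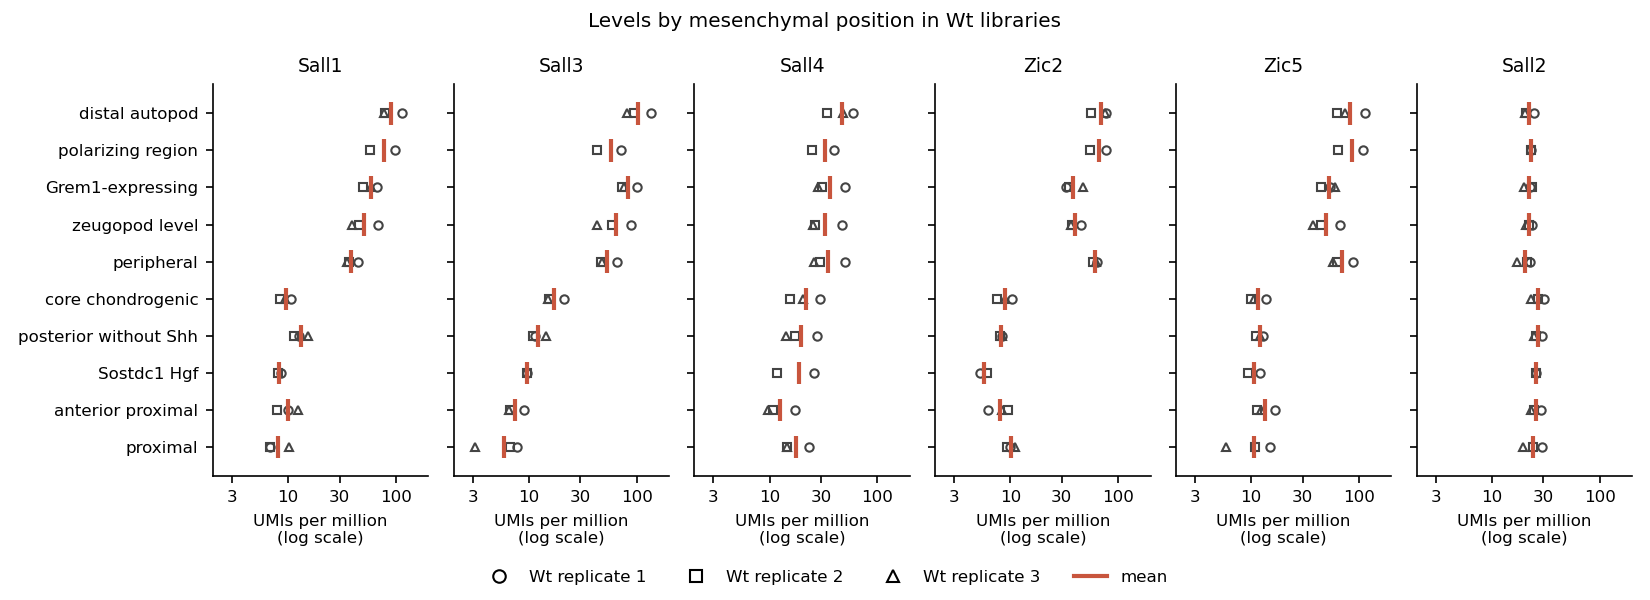
Wt levels of the 6 measurable genes (CPM, log axis) in the 10 mesenchymal positions, with 1 open symbol per Wt library of 20 or more cells and a bar for the mean. The 5 upper positions lie to the right of the 5 lower positions for *Sall1*, *Sall3*, *Zic2* and *Zic5*, *Sall4* has a flatter slope, and *Sall2* stays between 17.1 and 30.5.

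The paired test of each position against the rest of the mesenchyme of the same library called 53 of 60 gene and position pairs, against 38.2% of all 133279 tested pairs. This test pooled Wt and mutant libraries, so that its values are not those of Wt alone. The share of all genes called was 38.9% in the distal autopod, 25.4% in the polarizing region, 40.5% in *Grem1*-expressing cells, 56.3% at the zeugopod level and 44.4% in peripheral cells. It was 64.3% in core chondrogenic, 29% in posterior, 6.65% in *Sostdc1* *Hgf*, 21% in anterior proximal and 57.8% in proximal cells. For *Sall1*, *Sall3*, *Sall4*, *Zic2* and *Zic5*, 24 of 25 pairs were higher in the 5 high positions and 25 of 25 were lower in the other 5, a split of the positions made after their values were seen. Calls in the higher direction made up 19.2% of all pairs and calls in the lower direction 18.9%. The pair that did not pass was *Sall4* in the polarizing region (log2 fold change 0.15 ± 0.06 SE, adjusted p = 0.0576).

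The distal autopod had the largest rises of *Sall1*, *Sall3*, *Sall4* and *Zic5* among the 10 positions, with *Sall1* at 2.15 ± 0.06 (log2 fold change ± SE over the rest, 8 libraries), *Sall3* at 1.59 ± 0.05, *Zic2* at 1.47 ± 0.05, *Zic5* at 1.47 ± 0.05 and *Sall4* at 0.76 ± 0.07. In the polarizing region *Sall1* (1.66 ± 0.07), *Zic2* (1.38 ± 0.07) and *Zic5* (1.28 ± 0.05) rose by over 1, and *Sall3* by 0.33 ± 0.06, a call lost with cells of exactly 1 position (0.19, adjusted p = 0.0822). The peripheral cells were led by the *Zic* genes, *Zic2* at 1.53 ± 0.05 and *Zic5* at 1.36 ± 0.05, ahead of *Sall1* at 0.87 ± 0.06 and *Sall3* at 0.86 ± 0.07. Differences in rise between positions were not tested. At the zeugopod level *Sall1* (1.51 ± 0.06) and *Sall3* (1.38 ± 0.05) led, with *Sall1* at 0.35 when cells were gated on all UMIs.

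*Grem1*-expressing cells were highest in *Sall3* (1.14 ± 0.10), followed by *Sall1* (0.90 ± 0.13), *Zic5* (0.56 ± 0.10), *Sall4* (0.51 ± 0.05) and *Zic2* (0.41 ± 0.09). With cells of exactly 1 position, *Sall1* stood at 0.25 there (adjusted p = 0.176) and *Zic2* (-0.21, adjusted p = 0.081) and *Zic5* (-0.08, adjusted p = 0.649) turned below 0. Among the low positions, *Sall3* fell in proximal (-2.32 ± 0.09) and anterior proximal cells (-2.22 ± 0.11), at -1.59 and -1.44 with gates on all UMIs. *Sall1* fell in proximal (-1.73 ± 0.09), *Sostdc1* *Hgf* (-1.72 ± 0.12) and core chondrogenic cells (-1.69 ± 0.07). The Wt levels in these positions overlapped with background, so that the sizes of these falls were not ranked. *Sall2* went the other way, higher in core chondrogenic cells (0.18 ± 0.03) and posterior cells (0.12 ± 0.04) and lower in peripheral cells (-0.20 ± 0.03) and at the zeugopod level (-0.11 ± 0.03), the last not called with gates on all UMIs (-0.06, adjusted p = 0.115). The rise of *Sall2* in the posterior cells (adjusted p = 0.0342) was lost without any of Wt replicates 1, 2 and 3, E1C8 replicate 3 and E1C5 replicates 1 and 3, and its values without a library ran from 0.11 to 0.14. The call was also lost in Wt libraries alone (0.13, adjusted p = 0.294), without the low-count filter (0.09, 0.245) and without the deepest cells (0.11, 0.187). The same held for cells with no UMI of another lineage marker (0.12, 0.0597).

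As a description over the 10 positions of Wt, which share libraries and some cells, *Zic2* and *Zic5* correlated at Pearson r = 0.986 on mean log2 levels, *Sall1* and *Zic5* at 0.976, *Sall3* and *Sall4* at 0.962 and *Sall1* and *Sall3* at 0.96. *Sall2* ran against the other 5, from r = -0.768 with *Sall3* to r = -0.883 with *Zic2*. Among 8441 autosomal genes, those most like *Sall1* were *Taf5l* (r = 0.984), *Nepro* (0.982) and *Gldc* (0.981), the last of which encodes the glycine decarboxylase. Those most like *Sall3* were *Map1b* (0.989), a microtubule-associated protein gene, *Arid3b* (0.985) and *Abcb6* (0.982). For *Sall4* they were *Abcb6* (0.983), *Psmd9* (0.98) and *Yju2* (0.978). For *Zic2* they were *D1Ertd622e* (0.983), *Cd302* (0.981) and *Tmem189* (0.98). For *Zic5* they were *Cbln1* (0.988), *Pmaip1* (0.986), which encodes the BH3-only protein NOXA, and *Gldc* (0.983). For *Sall2* they were *Suco* (0.951), *Rpgrip1l* (0.936), a gene of the primary cilium, and *Tcim* (0.92). The r value does not measure the size of a change, and it also uses the low positions that overlapped with background. *Psmd9* ran only from 48.96 to 55.74 CPM over the positions, *Tmem189* from 17.93 to 21.36 and *Abcb6* from 9.71 to 14.48. *Pmaip1* ran from 5.57 to 102.2 and *Gldc* from 4.36 to 33.81.

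**Figure D2:**
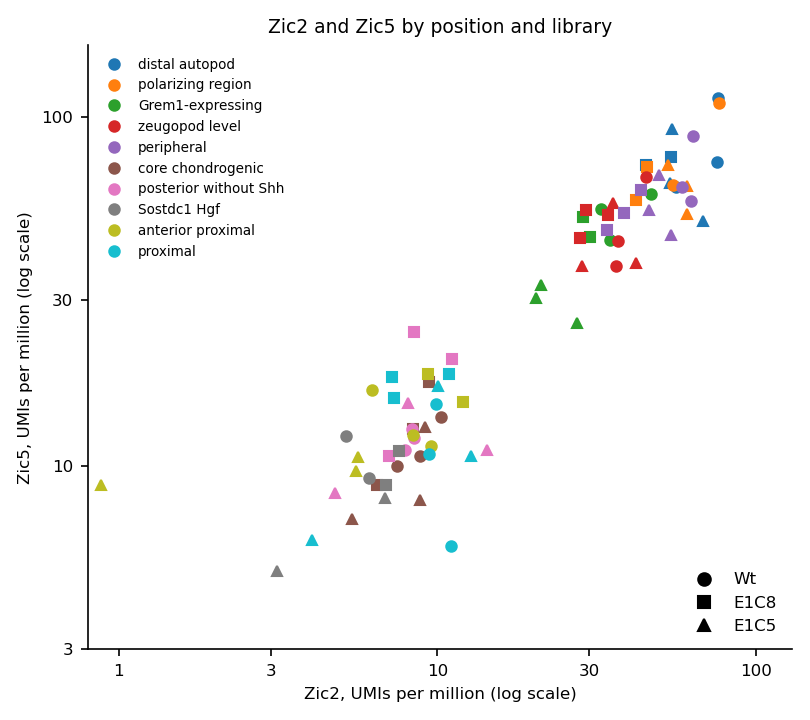
*Zic2* against *Zic5* (CPM, both axes logarithmic), with 1 point per position and library, coloured by position and shaped by genotype. Points of the 5 high positions sit in the upper right and those of the 5 low positions in the lower left in all 3 genotypes, with *Grem1*-expressing cells of the 3 E1C5 libraries (25.7 to 33.0 for *Zic5*) between the groups.

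Outside the mesenchyme the genes were mostly lower in a paired test that also pooled Wt and mutant libraries. Of 36 gene and lineage pairs over 6 lineages, 30 were lower than in mesenchyme and 1 was higher, against 27.1% lower and 24.8% higher (51.8% in all) among all pairs. The exception was *Sall2* in muscle progenitors (gated on *Pax3*, *Lbx1* and 4 further markers, cells that migrate in from the somites), with 28.5 ± 4.95 CPM in Wt against 24.2 ± 1.94 in mesenchyme (log2 fold change 0.40 ± 0.03, adjusted p = 1.01e-07). In the same cells *Sall3* (-1.86 ± 0.09), *Zic2* (-1.77 ± 0.11), *Zic5* (-1.75 ± 0.11) and *Sall1* (-1.03 ± 0.05) were lower than in mesenchyme, and *Sall4* was at -0.22 ± 0.05. The muscle levels of *Sall3*, *Zic2* and *Zic5* overlapped with those of erythroid cells. In endothelium *Zic2* (log2 fold change -2.22) and *Zic5* (-2.11) were lower, at -0.93 and -0.85 with gates on all UMIs. *Sall1* in megakaryocytes (-1.12 ± 0.32, adjusted p = 0.00741) rested on 2 libraries, was not called by DESeq2 (adjusted p = 0.242) and stood at 0.15 (adjusted p = 0.999) with gates on all UMIs. None of the other genes was called in megakaryocytes. Cells with mesenchyme markers were not kept out of these lineages, and their part in the levels was not tested. Neural crest and glial cells were too few, 20 in all, to be fitted.

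*Zic1* was found mainly in muscle progenitors, with 69 UMIs in 3574 cells of all libraries, 0.405 CPM, against 24 UMIs in 39765 mesenchymal cells. In Wt muscle progenitors it stood at 0.645 ± 0.468 CPM. Erythroid cells, endothelium, ectoderm, macrophages and megakaryocytes gave 0 UMIs of *Zic1*, and the erythroid count allows up to 0.0274 CPM. The macrophage count allows up to 0.219 CPM and the megakaryocyte count up to 0.588, so that megakaryocytes could not be told from muscle progenitors.

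Among Wt mesenchymal cells thinned to 10000 UMIs, 16.5% ± 2.52 held a UMI of *Sall1*, 20.5% ± 4.57 of *Sall3*, 20.1% ± 6.29 of *Sall4*, 17.2% ± 1.44 of *Zic2*, 19.2% ± 4.53 of *Zic5* and 21.6% ± 0.797 of *Sall2*. Erythroid cells, which should lack these genes, held them at 2.32% to 6.37%, with a median depth of 38238 UMIs against 37074. The mesenchymal mean of each gene was above its own erythroid mean. In muscle progenitors (median depth 49398 UMIs) *Sall3* was found in 3.44% of cells against 2.32% of erythroid cells, *Zic2* in 3.89% against 3.8% and *Zic5* in 3.76% against 6.37%, with overlapping ranges over libraries, so that these shares were read as background. On all UMIs the Wt mesenchymal shares ran from 36.6% for *Sall1* to 60.0% for *Sall2*.

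In the summed mesenchyme *Sall1* was lower in the mutants. It stood at 33.3, 22.0 and 23.7 CPM in Wt, at 16.9, 15.9 and 13.0 in E1C8 and at 12.9, 16.5 and 20.6 in E1C5. All 6 mutant libraries were below all 3 Wt libraries, as was the case for 3.52% of the 16795 genes tested. The log2 fold change of both mutants against Wt was -0.72 ± 0.14 SE (adjusted p = 0.0267), 1 of 6 genes called against 2.3% of all genes. Against Wt it was -0.83 ± 0.17 in E1C8 (adjusted p = 0.0152, with 8.78% of genes called) and -0.61 ± 0.16 in E1C5 (adjusted p = 0.107, with 1.64% called). E1C8 and E1C5 did not differ detectably from each other in *Sall1* (-0.22 ± 0.17, adjusted p = 0.437, with 9.38% called).

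The 2 male mutant libraries, E1C8 replicate 3 and E1C5 replicate 2, held 13.0 and 16.5 CPM of *Sall1* against 22.0 or more in the 3 male Wt libraries. In these 5 libraries alone the log2 fold change of both mutants was -0.78. With sex as a covariate in all 9 it was -0.78 and not called (adjusted p = 0.208). The call was also lost without Wt replicate 1 (-0.52, adjusted p = 0.0799), Wt replicate 3 (-0.79, 0.0523), E1C8 replicate 1 (-0.74, 0.0575), E1C8 replicate 2 (-0.73, 0.0572) or E1C8 replicate 3 (-0.67, 0.0619). In E1C8 alone it was lost without any of its own replicates (adjusted p = 0.051 to 0.0639).

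*Sall3* was at 47.85, 30.05 and 27.47 CPM in Wt, 25.4, 21.9 and 22.9 in E1C8 and 23.6, 28.2 and 40.7 in E1C5. The E1C8 libraries lay below all Wt libraries, but the difference did not pass (-0.62 ± 0.20, adjusted p = 0.0801), and E1C5 overlapped with Wt (-0.14 ± 0.20, adjusted p = 0.812). *Zic2* was at 29.0, 21.8 and 26.6 in Wt, 20.9, 19.6 and 17.8 in E1C8 and 16.0, 25.4 and 23.8 in E1C5. Again E1C8 lay below all Wt libraries without passing (-0.44 ± 0.15, adjusted p = 0.0946). The share of all genes with every E1C8 library below every Wt library was not counted, so these separations were not read further. Without Wt replicate 3 (adjusted p = 0.0396) or E1C5 replicate 3 (0.0473), *Sall3* was called in E1C8, as was *Zic2* without E1C5 replicate 1 (0.0389).

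*Sall4* was at 35.15, 19.32 and 20.96 CPM in Wt, 28.0, 23.1 and 22.3 in E1C8 and 24.0, 26.7 and 42.1 in E1C5, with no difference detected (0.14 ± 0.19, adjusted p = 0.742). *Zic5* (42.3, 26.1 and 25.0 in Wt) overlapped between genotypes, at 31.2, 30.7 and 26.3 in E1C8 and 20.1, 23.0 and 35.8 in E1C5 (-0.15 ± 0.17, adjusted p = 0.683). *Sall2* was at 26.2, 23.9 and 22.3 in Wt and between 18.5 and 25.7 in the mutants (-0.13 ± 0.10, adjusted p = 0.498). Wt replicate 1 was the highest Wt library for each of the 6 genes, and E1C5 replicate 3 the highest E1C5 library for 5 of them, with *Zic2* as the exception.

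**Figure D3:**
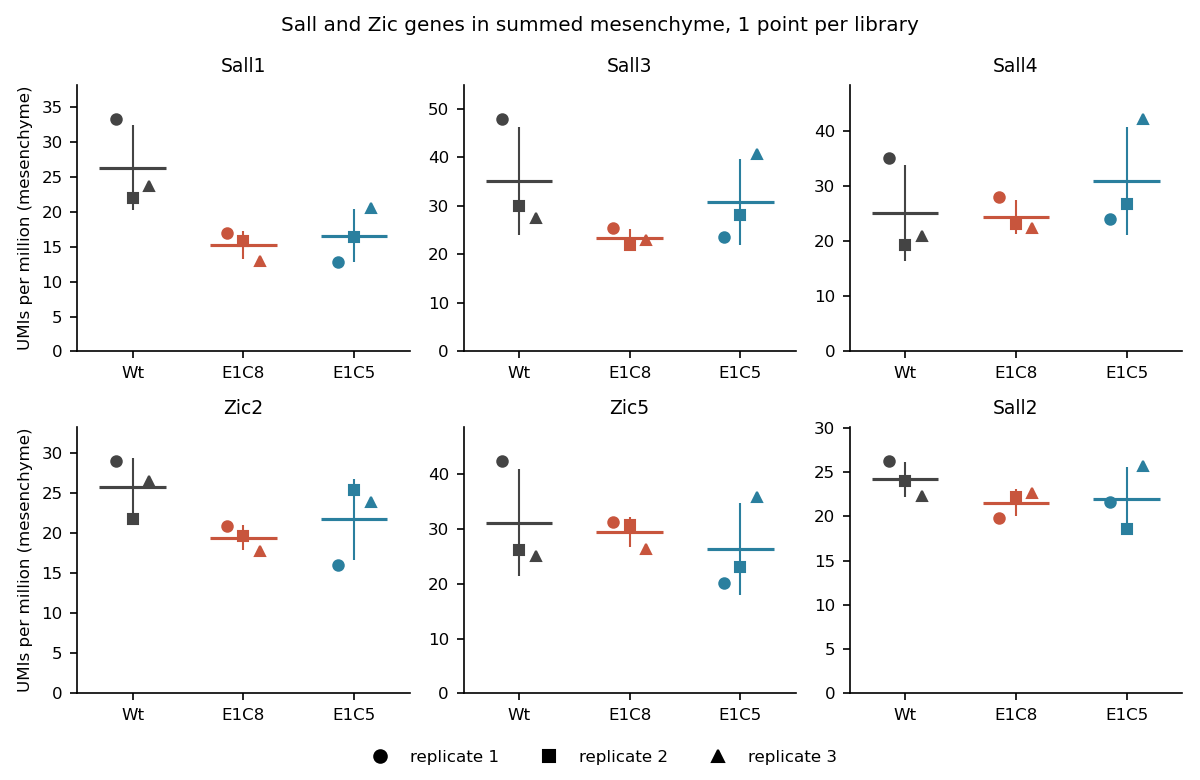
CPM of 6 genes in summed mesenchyme, with 1 symbol per library shaped by replicate number, a horizontal line for the genotype mean and a vertical line for ± SD (n = 3). *Sall1* has all 6 mutant libraries, up to 20.6, below the lowest Wt library at 22.0, while the other genes overlap in at least 1 mutant.

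The share of thinned mesenchymal cells with a UMI of *Sall1* was 14.1% to 19.1% in Wt and 9.12% to 14.5% in the mutants, so that the groups overlapped. The means differed by -5.04 percentage points. An exact permutation test over libraries, two-sided, gave p = 0.0238 and an adjusted p of 0.167 over the 7 genes, where 0.0119 is the smallest p that 84 splits can give, too large for 1 gene alone to pass over 7. None of the other 6 genes had an exact p under 0.05. In summed cells, fewer cells of a high position and less RNA per cell cannot be told apart. Distal autopod cells made up 3.79% ± 1.36 of Wt mesenchyme, 2.34% ± 1.03 of E1C8 and 0.988% ± 0.295 of E1C5, and *Grem1*-expressing cells 6.34% ± 1.63, 1.91% ± 0.198 and 3.41% ± 1.5. The polarizing region made up 2.67% ± 0.187, 1.69% ± 0.0602 and 1.77% ± 0.573. Other high positions were not smaller in both mutants: peripheral cells made up 9.58% ± 1.73, 12.7% ± 1.84 and 11.2% ± 3.14. The zeugopod level made up 16.8% ± 1.22, 15.8% ± 1.44 and 19.6% ± 0.758. Summed levels of the markers of each other lineage in gated mesenchyme stayed at or below 18.4 CPM in all libraries. Of 7 lists, 3 separated a mutant from Wt. Ectoderm markers summed to 5.96 to 6.36 CPM in Wt, 7.66 to 9.39 in E1C8 and 4.15 to 5.68 in E1C5. Macrophage markers were at 1.01 to 2.09 in Wt and 0.544 to 0.907 in E1C5, and erythroid markers at 3.99 to 8.23 in Wt and 1.21 to 3.79 in E1C8. Their part in the *Sall1* result was not tested.

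Within positions, *Sall1* in *Grem1*-expressing cells was the pair called for both mutants against Wt, 1 of 60 against 0.63% of all pairs. *Sall1* there stood at 66.3, 49.0 and 59.1 CPM in Wt, at 33.8 and 26.3 in E1C8 replicates 2 and 3, and at 16.9, 23.1 and 18.7 in E1C5. All mutant libraries used were below all Wt libraries, and the share of all genes so separated in this position was not counted. For both mutants 0.419% of genes were called there, and E1C8 replicate 1, with 8 such cells, was not used. The log2 fold change was -1.25 ± 0.13 (adjusted p = 0.000674), with -0.93 ± 0.18 in E1C8 (adjusted p = 0.0296, 0.819% of genes called) and -1.57 ± 0.16 in E1C5 (adjusted p = 0.000352, 0.764% called). These cells were gated on the targeted gene itself, with at least 2 *Grem1* UMIs per thinned cell. Of these cells 47.4% to 52.4% sat at that minimum in the Wt libraries and 64.6% to 74.4% in the 5 mutant libraries used, and its part in the result was not tested. With sex as a covariate the adjusted p of both mutants was 0.0558, and the E1C8 call was lost without E1C8 replicate 2 (-1.10, adjusted p = 0.165) or replicate 3 (-0.75, 0.388). The E1C8 call was also lost with sex as a covariate (adjusted p = 0.135), without the deepest cells (0.0679) and with cells of exactly 1 position (0.074). In the 5 male libraries, with E1C8 replicate 3 and E1C5 replicate 2 as the only mutant libraries, *Sall1* stood at -1.18 for both mutants. It stood at -1.10 for E1C8 and -1.26 for E1C5.

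In E1C5, *Sall3* and *Zic5* were also lower in *Grem1*-expressing cells, 3 of 60 pairs called in this mutant against 0.57%. *Sall3* was at 100.8, 73.0 and 75.8 in Wt against 38.6, 44.1 and 56.0 in E1C5 (-0.80 ± 0.15, adjusted p = 0.0197). *Zic5* was at 54.5, 44.4 and 60.2 in Wt against 30.3, 25.7 and 33.0 (-0.76 ± 0.14, adjusted p = 0.0204). The 2 E1C8 libraries held 51.7 and 45.3 of *Zic5*, within the Wt range, and the difference between the mutants did not pass (0.68 ± 0.16, adjusted p = 0.0601). The *Sall3* call was lost without Wt replicate 1 (-0.67, adjusted p = 0.0512), E1C5 replicate 1 (-0.71, 0.0834) or E1C5 replicate 2 (-0.79, 0.068), and the *Zic5* call without E1C5 replicate 1 (-0.79, 0.06) or 2 (-0.70, 0.073). With gates on all UMIs neither passed, at -0.46 (adjusted p = 0.199) for *Sall3* and -0.48 (0.245) for *Zic5*. The same held with sex as a covariate (-0.77, 0.393 and -0.92, 0.154) and with cells of exactly 1 position (-1.02, 0.0507 and -0.81, 0.229). In male libraries, with E1C5 replicate 2 as the only E1C5 library, they stood at -0.85 and -0.96.

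In peripheral cells 3 genes were called lower in E1C8, where 5 of 60 pairs were called over all positions, against 2.9%. *Zic2* was at 63.8, 58.5 and 62.5 CPM in Wt and at 34.2, 43.7 and 38.6 in E1C8 (-0.63 ± 0.11, adjusted p = 0.00999). *Sall1* was at 44.1, 36.4 and 35.4 against 23.8, 28.2 and 21.5 (-0.65 ± 0.12, adjusted p = 0.0107). *Sall3* was at 66.0, 46.6 and 47.7 against 37.5, 34.4 and 36.7 (-0.57 ± 0.14, adjusted p = 0.0297). Of all genes tested in this position, 6.94% were called. All 3 genes had every E1C8 library below every Wt library, and the share of all genes so separated was not counted. The gate used *Asb4* and *Msx1*, which the study reports as raised in autopodial and posterior progenitors of both mutants. It held 9.58% ± 1.73 of Wt mesenchyme, 12.7% ± 1.84 of E1C8 and 11.2% ± 3.14 of E1C5. The part of the gate in these results was not tested. *Sall3* lost its call without Wt replicate 1 (-0.40, adjusted p = 0.115), E1C8 replicate 1 (-0.58, 0.0822), 2 (-0.51, 0.124) or 3 (-0.60, 0.0844) and with gates on all UMIs (-0.53, 0.0745), and *Sall1* without E1C8 replicate 3 (-0.55, 0.0605). With sex as a covariate none of these 3 calls was kept, at -0.73 for *Sall1* (adjusted p = 0.0654), -0.57 for *Zic2* (0.0924) and -0.64 for *Sall3* (0.104). In male libraries, with E1C8 replicate 3 as the only E1C8 library, they stood at -0.81, -0.63 and -0.50.

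In E1C5 peripheral cells *Sall1* was at 28.3, 30.2 and 32.5 (-0.31 ± 0.12, adjusted p = 0.428) and *Zic2* at 46.3, 54.1 and 49.8 (-0.25 ± 0.11, adjusted p = 0.531), both below all Wt libraries without passing. The share of all genes with every E1C5 library below every Wt library there was not counted. *Sall3* was at 59.0, 46.0 and 61.5, overlapping with Wt (0.10 ± 0.13, adjusted p = 0.898). The direct contrast of E1C8 against E1C5 in peripheral cells was called for *Sall3* (-0.67 ± 0.14, adjusted p = 0.0123) and *Zic2* (-0.38 ± 0.11, adjusted p = 0.0443), 2 of 60 pairs over all positions against 3.09% of all pairs, a count near that background. In peripheral cells alone 9.51% of genes were called in this contrast.

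At the zeugopod level *Sall1* was at 68.4, 45.2 and 38.9 in Wt, 32.0, 33.3 and 28.3 in E1C8 and 30.2, 36.8 and 42.8 in E1C5. It was called in E1C8 (-0.75 ± 0.18, adjusted p = 0.0257, with 7.16% of genes called) and not in both mutants (-0.61 ± 0.15, adjusted p = 0.059). The E1C8 call was lost without Wt replicate 1 (-0.50, 0.0733), Wt replicate 2 (-0.80, 0.0521), or E1C8 replicate 1 (-0.74, 0.0685), 2 (-0.80, 0.0872) or 3 (-0.68, 0.109). It was also lost with sex as a covariate (-0.77, adjusted p = 0.104), with gates on all UMIs (-0.72, 0.0627) and with cells of exactly 1 position (-0.66, 0.0592). In male libraries, with E1C8 replicate 3 as the only E1C8 library, *Sall1* stood at -0.82. In the distal autopod *Sall1* was at 113.8, 79.9 and 76.7 in Wt, 68.8 and 64.5 in E1C8 and 60.3, 94.0 and 102.4 in E1C5. Both E1C8 libraries were below all Wt libraries without passing (-0.41 ± 0.19, adjusted p = 0.302), and E1C5 overlapped with Wt (both mutants -0.23 ± 0.15, adjusted p = 0.624). The share of all genes with both E1C8 libraries so placed was not counted.

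**Figure D4:**
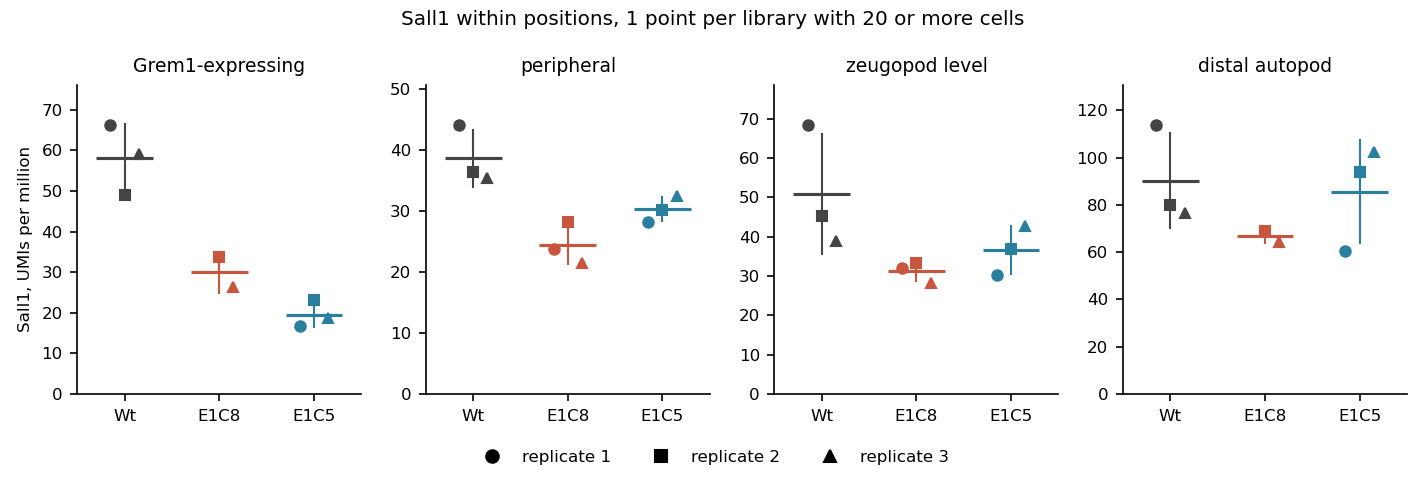
*Sall1* (CPM) within 4 positions, with 1 symbol per library of 20 or more cells, a horizontal line for the genotype mean and a vertical line for ± SD (n = 2 or 3). In *Grem1*-expressing cells all 5 mutant libraries lie at or below 33.8 and all Wt libraries at or above 49.0, whereas in the distal autopod E1C5 overlaps with Wt and both E1C8 libraries (64.5 and 68.8) lie below the lowest Wt library (76.7).

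**Figure D5:**
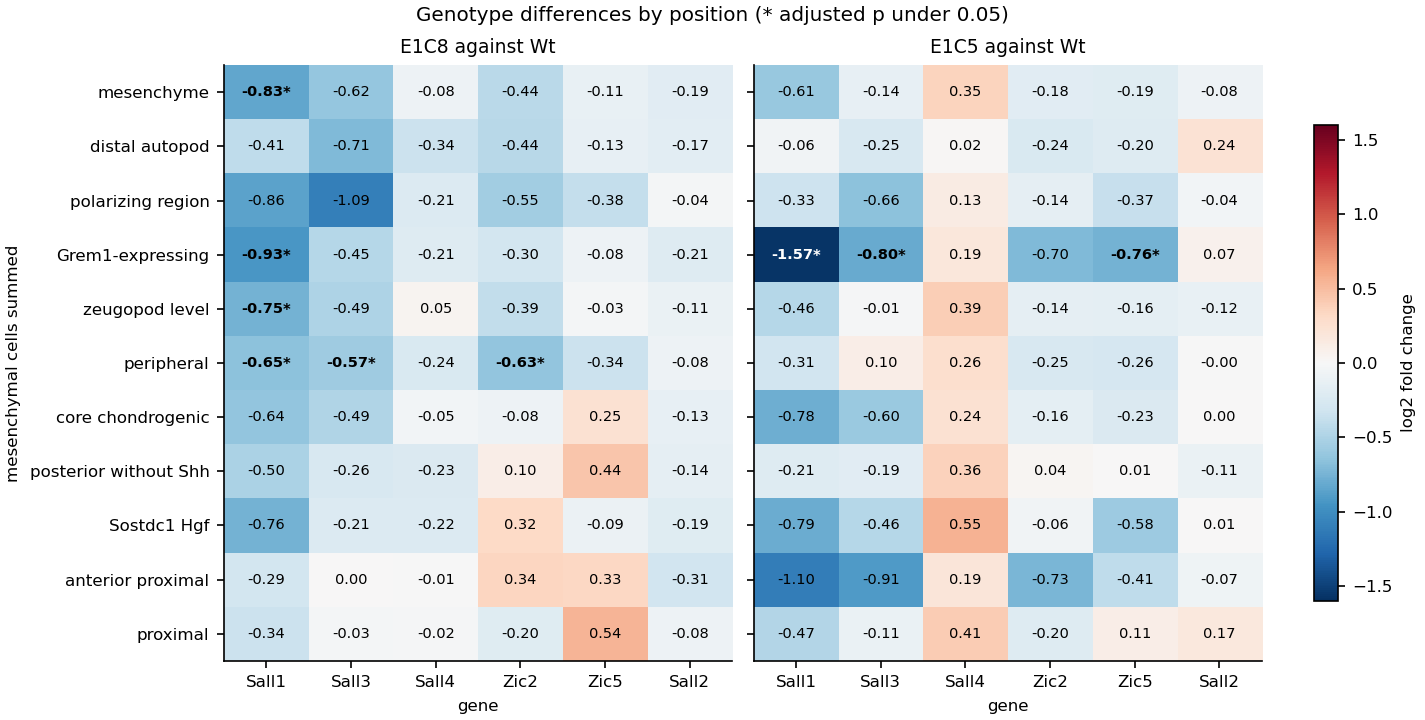
Log2 fold changes of each mutant against Wt for 6 genes in summed mesenchyme and 10 positions, coloured from blue (lower) to red (higher), with an asterisk at an adjusted p under 0.05. The *Sall1* column is below 0 throughout, from -1.57 to -0.06, and the asterisks lie in *Grem1*-expressing, zeugopod level and peripheral cells and in E1C8 mesenchyme.

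Whether the contrast between a position and the rest differed between mutant and Wt was asked with an exact permutation test over libraries, chosen after the data were seen. With at most 84 splits a single test could not pass adjustment over the 60 made, so that the lack of calls says little. The smallest adjusted p was 0.571, and 5 tests were under 0.05 before adjustment. In *Grem1*-expressing cells *Sall1* stood at 0.56 ± 0.49 (log2 over the rest, SD, n = 5) in the mutants and 1.26 ± 0.15 in Wt (exact p = 0.0357, adjusted p = 0.571). In the distal autopod it stood at 2.30 ± 0.15 (n = 5) and 1.90 ± 0.03 (exact p = 0.0179, the smallest that 56 splits can give, adjusted p = 0.571). Neither passed.

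The genes that work with the SALL and ZIC proteins were followed as lists in summed mesenchyme, both mutants against Wt, with a median log2 fold change over all genes of -0.01, and with 2.3% of all genes called and 1.56% called lower. Of 13 NuRD genes, 2 fell and none rose (median -0.05). *Chd3*, an ATPase of the complex, was at 136.6, 142.2 and 162.4 CPM in Wt and at 86.5 to 119.1 in the mutants (-0.55 ± 0.09, adjusted p = 0.0167). *Chd4*, the related ATPase, was at 715.4, 660.2 and 651.4 in Wt, 413.8, 443.0 and 431.6 in E1C8 and 600.5, 571.3 and 728.1 in E1C5 (-0.36 ± 0.08, adjusted p = 0.0439). The *Chd4* call was lost without any library but E1C5 replicate 3 (adjusted p up to 0.137), and that of *Chd3* without Wt replicate 2 or 3 (0.0559 and 0.0596).

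Of 11 limb genes that act with *Sall4*, 2 fell and none rose (median -0.14). *Hoxd13*, an autopod Hox gene, was at 35.4, 31.1 and 43.8 in Wt against 17.2 to 26.4 in the mutants (-0.79 ± 0.12, adjusted p = 0.0114). *Tbx4*, the hindlimb T-box gene, was near 5 CPM in Wt (4.79, 4.66 and 6.41) at 1.64, 1.77 and 2.68 in E1C5 and at 3.80, 4.81 and 4.23 in E1C8, which overlapped with Wt (both mutants -0.80 ± 0.16, adjusted p = 0.0261). *Tbx4* lost its call without any of 6 libraries, Wt replicates 2 and 3, E1C8 replicates 1 and 3 and E1C5 replicates 1 and 2, with adjusted p up to 0.0834. *Tbx5*, *Gli3*, *Fgf10* and *Zbtb16* did not pass.

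Among Hedgehog response genes *Hhip*, which encodes a membrane-bound Hedgehog inhibitor, fell from 4.24, 3.87 and 3.69 to between 1.28 and 2.65 CPM (-1.13 ± 0.18, adjusted p = 0.0121). *Gli1* (-0.36 ± 0.14, adjusted p = 0.2) and *Ptch1* (-0.32 ± 0.14, adjusted p = 0.254) did not pass. None of the 6 GLI relatives tested out of 7 was called (median -0.11), *Zic4* having failed the low-count filter. Of 3 genes of the distal score, *Cyp26b1*, which encodes a retinoic acid degrading enzyme, fell (-0.66 ± 0.13, adjusted p = 0.0294), from 107.3, 70.3 and 68.9 to between 46.0 and 62.0. Its call was lost without Wt replicate 1 or 2, E1C8 replicate 1 or 3, or E1C5 replicate 1 or 2 (adjusted p up to 0.0746). All 6 calls in these lists were lost with sex as a covariate. The values were -1.44 for *Hhip* (adjusted p = 0.0575), -0.93 for *Hoxd13* (0.0802), -0.86 for *Tbx4* (0.222), -0.40 for *Chd3* (0.245), -0.67 for *Cyp26b1* (0.251) and -0.38 for *Chd4* (0.297). In the 5 male libraries, with E1C8 replicate 3 and E1C5 replicate 2 as the only mutant libraries, *Hhip* stood at -1.44, *Hoxd13* at -0.93 and *Tbx4* at -0.87. *Chd3* stood there at -0.39, *Cyp26b1* at -0.665 and *Chd4* at -0.37.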

How the data were processed

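The authors aligned 10x 3′ v3.1 reads to mm10 with Cell Ranger 6.0.1, and the submitters' processing notes also name Seurat 4.3.0.1. The deposited matrices hold UMI counts per gene and barcode, with no normalization. Cells with over 2500 genes, under 200000 UMIs and under 10% mitochondrial UMIs were kept, and those with at least 10000 UMIs were thinned to 10000 for gating. Each of 7 other lineages needed UMIs of at least 2 of its 6 markers. Mesenchyme needed *Prrx1* with *Pdgfra*, *Tbx5* or *Twist1*, and under 2 markers of every other list. No doublet caller was run. Cells with at least 2 markers of several of these 7 lists were left out. Mesenchyme markers did not keep a cell out of another lineage, so those groups may hold cells of mixed content. An alternative left out the deepest cells (0.8% of cells per 1000 barcodes).

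Counts of libraries with at least 20 cells were summed per group and tested with edgeR 4.0.16 (TMM, quasi-likelihood, filterByExpr, Benjamini-Hochberg over autosomal genes, threshold 0.05). Genotype contrasts used all libraries with at least 20 cells of a group in 1 fit, 9 in summed mesenchyme and fewer in some positions. Position and lineage contrasts had the library as a block. Standard errors were the log2 fold change over the root of F. On simulated counts for the mesenchyme comparison of both mutants with Wt, 85% of 200 genes changed by a log2 of 1 were recovered, with 9 false calls among 16795 genes. All genes had a dispersion of 0.03 there, with no effect of sex and no smaller changes. The figures therefore do not give the power for the changes reported here. The methods call the 3 libraries of a genotype biologically independent, and p-values of genotype contrasts measure the spread between them. Those of position and lineage contrasts measure the spread of the difference within a library, over Wt and mutant libraries pooled.

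The named genes were the 7 members, the 3 genes most like each across positions, up to 4 called genes of each list, and *Grem1*. Members and lists were chosen with earlier results of these data known. UMI intervals cover counting error only. Positions were rebuilt from markers, not taken from an annotation of the authors. The share of gated cells at the minimum UMI number ran from 31.6% for peripheral to 93.3% for *Sostdc1* *Hgf* cells. The result of 1 listed gene is not reported here.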

Additional observations from a re-analysis of the deposited data

Results flagged for a closer look

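The direct test of E1C8 against E1C5 called *Sall3* and *Zic2* in peripheral mesenchyme. These were 2 of 60 pairs of gene and position, against 3.09% of all pairs, a count near that background. *Sall3* was lower in E1C8 than in E1C5 by a log2 fold change of -0.67 (SE 0.14, edgeR adjusted p = 0.0123), with the 3 E1C8 libraries at 34.4 to 37.5 CPM and the 3 E1C5 libraries at 46.0 to 61.5. *Zic2* was lower in E1C8 by a log2 fold change of -0.38 (SE 0.11, adjusted p = 0.0443), with E1C8 at 34.2 to 43.7 and E1C5 at 46.3 to 54.1. The call of *Sall3* was lost without E1C8 replicate 2 (-0.61, adjusted p = 0.0653) and with gates on all UMIs (-0.45, adjusted p = 0.116). That of *Zic2* was lost without any 1 of 7 libraries, all but Wt replicates 1 and 3 (adjusted p from 0.0648 to 0.15), and it stood at -0.15 (adjusted p = 0.471) with gates on all UMIs. It was also lost with sex as a covariate (0.0607) and without the deepest cells (0.0878). In male libraries, with only E1C8 replicate 3 and E1C5 replicate 2 to compare, *Sall3* stood at -0.36 and *Zic2* at -0.52. The 48 peripheral cells of E1C8 replicate 1 were the fewest of any library in this position. The part of the *Asb4* and *Msx1* gate in this contrast was not tested. In this contrast 9.51% of 13266 genes were called.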

How the results depend on the processing

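In summed mesenchyme both mutants against Wt gave 1 called gene of 6, *Sall1*, and 0 with the replicate block, with sex as a covariate or in the 5 male libraries, the last an alternative chosen after seeing the data. E1C8 against Wt gave 1, but 3 by DESeq2, 2 without a filter on low counts, 2 without the deepest cells, 2 with only the E1C8 and Wt libraries and 0 with sex as a covariate or in male libraries. E1C5 against Wt gave 0 by edgeR (1 with an unadjusted p under 0.05), but 1 by DESeq2 and 1 without the filter. E1C8 against E1C5 gave 0 by edgeR (1 unadjusted) and 0 by DESeq2. Leaving out 1 library gave 0 to 1, 0 to 2, 0 to 0 and 0 to 0 calls in these 4 contrasts. The male libraries hold only E1C8 replicate 3 and E1C5 replicate 2 of the mutants. Calls lost there, here and in the counts below, say little of stability.

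Within positions both mutants gave 1 call of 60, but 7 by DESeq2, 2 with RLE factors, 11 without the filter, 3 with gates on all UMIs, 3 without the deepest cells and 0 with sex as a covariate (1 to 4 when a library was left out). E1C8 gave 5, but 8 by DESeq2, 10 without the filter, 3 with cells of exactly 1 position and 0 with sex as a covariate or in male libraries (1 to 7). E1C5 gave 3, but 8 without the filter, 1 with sex as a covariate, 1 with cells of exactly 1 position and 0 in male libraries (1 to 4). E1C8 against E1C5 gave 2, but 8 without the filter, 1 with sex as a covariate, 0 with gates on all UMIs, 1 without the deepest cells and 0 in male libraries (0 to 4). The cause of these shifts was not tested.

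The labels give replicate numbers without saying whether they pair the libraries. Same-numbered libraries of different genotypes deviated together by correlations of -0.139 to 0.0774, and different-numbered ones by -0.1397 to 0.2411. Such correlations cannot tell whether libraries were prepared together. With the replicate block the counts within positions were 1, 3, 2 and 1 for both mutants, E1C8, E1C5 and E1C8 against E1C5, and *Sall1* in summed mesenchyme was at -0.70 (adjusted p = 0.08). The block also ended the calls of *Sall1* at the zeugopod level in E1C8 (adjusted p = 0.0596), of *Sall1* in E1C8 (0.132) and *Zic5* in E1C5 (0.0514) in *Grem1*-expressing cells, of *Zic2* in peripheral E1C8 against E1C5 (0.0708) and of *Chd4* (0.0951) and *Cyp26b1* (0.0846) in mesenchyme.

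Of the 60 pairs of gene and position, 49 to 55 were called under every alternative against 53, and of the lineage pairs 27 to 32 against 31. Among them *Zic5* (-0.077) and *Zic2* (-0.21) in *Grem1*-expressing cells turned below 0 with cells of exactly 1 position, and *Sall1* in megakaryocytes rose to 0.15 with gates on all UMIs. The lists gave 6 calls, but 11 by DESeq2 (2 to 7 without 1 library), and none of the 6 was kept with sex as a covariate or in male libraries. Shares gave 0 by the permutation test (1 gene with an unadjusted p under 0.05), which no single gene could pass after adjustment, so that its alternatives say nothing of stability. Depth limits the distal autopod, where the libraries used held 24 to 176 cells.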

Other observations

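Within Wt cells thinned to 10000 UMIs, 7.37% ± 1.71 (SD, n = 3 libraries) of mesenchymal cells held UMIs of both *Zic2* and *Zic5*, 2.24 times the product of their shares (2.08 to 2.41 over libraries). *Sall1* and *Sall3* were found together in 7.79% ± 2.24, 2.3 times the product. Inside the distal autopod 24.6% ± 10.5 of cells held both *Zic2* and *Zic5* and 36.3% ± 10.0 both *Sall1* and *Sall3*, 1.12 and 1.14 times the product. *Sall2* and *Sall1* were found together in 3.26% ± 0.502 of mesenchymal cells, 0.917 times the product (0.829 to 1.04 over libraries). Inside the distal autopod 11.8% ± 3.6 of cells held both, 1.23 times the product (1.11 to 1.32). Cells of different positions are mixed in the mesenchymal value, and no test was made of these ratios.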
